A study of Mus musculus with 92 samples.

Results

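Slow skeletal muscle fibres build their sarcomeres from their own set of contractile proteins, and 6 of the genes for that set are described here in the quadriceps of 92 mice: the slow troponins Tnnt1, Tnni1 and Tnnc1, the slow myosin light chains Myl2 and Myl3, and Myoz2, which encodes a Z-disc protein. The genes were taken by name, and all 6 were among the 13441 genes measured. In the same animals their RNA differed 54.8-fold to 195-fold between the lowest and the highest animal. The 54.8-fold span is that of Myoz2 and rests on 1 animal, replicate 1, without which it is 10.8-fold. By contrast, the matching fast genes differed about 2-fold. The 3 troponins rose and fell together almost as a unit and followed Myh7, the slow myosin heavy chain. Myl2 followed them closely, Myl3 less so and Myoz2 least. The fast counterpart of none of the 6 passed the test for a fall where its slow gene was high.

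The animals were DOz mice, a colony of Diversity Outbred mice in which each animal inherits its own mixture of founder alleles. All were in 1 group: quadriceps muscle of animals kept lifelong on standard chow and aged roughly 18 to 20 weeks, with no mutant allele, drug or other agent named. Messenger RNA was sequenced from 1 library per animal, and each library counts as 1 replicate. The study's title links ceramides with very long chains in muscle to insulin resistance; the lipid and metabolic measurements were not analysed here. With a single group, the questions open to these files were how far the slow-fibre genes differed between animals, how tightly they moved together, and whether they moved with the ceramide synthases Cers1 and Cers2.

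As background, contraction is switched on by calcium at the thin filament. Troponin C binds the calcium, troponin I holds the filament off at rest, and troponin T ties the complex to tropomyosin. On the thick filament each myosin head carries a regulatory and an essential light chain, which stiffen and tune its lever arm. Slow fibres and fast fibres use different genes for each of these parts. Some of the slow set, such as Tnnc1, Myl2 and Myl3, is shared with the heart. Mouse quadriceps is made up mostly of fast fibres, with slow fibres concentrated in deep parts of the muscle. In bulk RNA, fewer cells of a type and less RNA per cell cannot be told apart, and how deeply each quadriceps was sampled is not given in the labels.

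Tnnt1 (ENSMUSG00000064179) encodes slow troponin T and lies at chr7:4504570-4516382 on the minus strand of mm10. Tnni1 (ENSMUSG00000026418), slow troponin I, lies at chr1:135779434-135810989 on the plus strand. Tnnc1 (ENSMUSG00000091898) encodes troponin C of slow and cardiac muscle and lies at chr14:31208312-31211729 on the plus strand. Myl2 (ENSMUSG00000013936), the slow and ventricular regulatory light chain, lies at chr5:122100951-122113472 on the plus strand. Myl3 (ENSMUSG00000059741), the slow and ventricular essential light chain, lies at chr9:110741861-110769798 on the plus strand. Myoz2 (ENSMUSG00000028116) encodes myozenin-2, also called calsarcin-1, which links alpha-actinin to calcineurin at the Z-disc, and lies at chr3:123006206-123035015 on the minus strand. The 6 genes are thus on 6 chromosomes, and neighbourhood on a chromosome is not something they share. Of the 31-base words in their transcripts, 0.248% (Tnni1) to 6.27% (Tnnc1) also occur in transcripts of another gene. Myh7 shares 27.9% of its words with other genes, chiefly Myh6, so levels of that pair are less certain.

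Because the genes moved together, the DNA before their start sites is shown for the troponins, the tightest group, and for Myl3, the looser of the light chains. Each sequence runs 5′ to 3′ on the gene's strand, covers the 250 bases before the RefSeq start (the first of those listed for Tnni1), and leaves out bases there that a GENCODE exon covers. The sequences are RefSeq's, on build GRCm38.p6, which is mm10. Capitals mark 2 motifs, searched on both strands: the E-box (CANNTG), the recognition letters of the myogenic factors, and the MCAT element (CATTCC, or GGAATG on the other strand), the recognition letters of TEAD factors. The Tnnt1 window is chr7:4516005-4516225, the Tnni1 window chr1:135799171-135799401, the Tnnc1 window chr14:31208062-31208311 and the Myl3 window chr9:110763428-110763645.
Tnnt1: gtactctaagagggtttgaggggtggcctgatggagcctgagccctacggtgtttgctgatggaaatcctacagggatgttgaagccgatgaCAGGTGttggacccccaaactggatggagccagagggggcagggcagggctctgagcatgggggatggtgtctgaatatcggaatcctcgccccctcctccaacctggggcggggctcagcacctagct
Tnni1: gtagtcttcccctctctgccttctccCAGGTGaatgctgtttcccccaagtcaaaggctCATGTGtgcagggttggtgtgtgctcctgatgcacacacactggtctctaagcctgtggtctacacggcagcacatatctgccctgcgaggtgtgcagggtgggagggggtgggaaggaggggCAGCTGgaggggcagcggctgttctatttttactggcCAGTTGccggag
Tnnc1: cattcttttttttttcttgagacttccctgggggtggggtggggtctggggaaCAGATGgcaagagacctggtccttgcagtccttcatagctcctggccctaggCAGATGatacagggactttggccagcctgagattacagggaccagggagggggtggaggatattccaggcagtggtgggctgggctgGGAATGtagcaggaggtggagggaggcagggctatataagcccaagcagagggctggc
Myl3: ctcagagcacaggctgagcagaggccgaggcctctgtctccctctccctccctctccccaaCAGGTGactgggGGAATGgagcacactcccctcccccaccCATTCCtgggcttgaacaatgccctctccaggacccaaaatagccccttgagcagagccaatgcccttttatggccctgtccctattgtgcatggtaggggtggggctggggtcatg

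The 4 windows hold between 1 and 4 E-boxes. Tnnt1 has 1, whose first base lies 158 bases before the start, and Tnni1 has 4, the nearest at 68 and 31 bases before it and the most distant at 224. Tnnc1 has E-boxes at 197 and 145 bases, and Myl3 has 1. The letters CAGGTG form the E-box of Tnnt1, the E-box of Myl3 and the most distant E-box of Tnni1. MCAT elements occur at 58 bases in Tnnc1 and 2 times in Myl3, the nearer at 149 bases, and not in the windows of Tnnt1 and Tnni1. Over all 32851 RefSeq promoter windows of 250 bases, 66.2% held an E-box and 12.6% an MCAT element, so an E-box is common to most windows. A MEF2 site, counted by name, occurred in 2.92% of windows and in none of the 4 printed. The window of Myoz2, which is not printed, holds one at 33 bases before the start. These matches describe letters only; binding was not measured.

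Levels are given as the deposited log2 values, whose linear sums ran from 898071 to 1140761 per library. From these sums they were read as log2 CPM, a scale on which gene length is not divided out. The labels do not state the scaling or whether length had already been divided out. All values per kilobase further on rest on this reading. Tnnt1 was 0.77 in the lowest animal, 3.60 in the median animal and 7.29 in the highest, with a mean of 3.70 ± 1.52 (SD, n = 92). Tnni1 went from -1.18 through a median of 1.88 to 5.81, with a mean of 1.90 ± 1.69 (SD, n = 92). Tnnc1 went from -1.51 through 2.17 to 6.09, with a mean of 2.11 ± 1.72 (SD, n = 92). The 3 troponins spanned a like range, with animals at all levels between the ends. In linear terms the highest animal had 92 times the Tnnt1 level of the lowest, 127 times the Tnni1 level and 195 times the Tnnc1 level. Between the quartiles the troponins still differed 4.89-fold, 5.87-fold and 5.18-fold.

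The light chains were spread about as widely. Myl2 was 0.03 in the lowest animal, 3.99 in the median animal and 7.10 in the highest, with a mean of 3.98 ± 1.45 (SD, n = 92), a span of 135-fold. Myl3 went from 0.43 through 4.69 to 7.74, with a mean of 4.572 ± 1.4996 (SD, n = 92), a span of 158-fold. Myoz2 stood apart from the other members in its spread: its lowest animal was at 0.85, the next at 3.20, the median at 5.30 and the highest at 6.63, with a mean of 5.20 ± 0.88 (SD, n = 92). Between the quartiles Myoz2 differed 1.94-fold, against 4.76-fold for Myl2 and 3.84-fold for Myl3. Myh7, measured beside them, went from 0.51 through 4.65 to 8.41, with a mean of 4.53 ± 1.87 (SD, n = 92).

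All 6 genes varied far more than genes of like abundance. A lowess curve through the SDs of all genes against their means gave 0.27 at the level of Tnnt1, where the measured SD was 1.52. The same curve gave 0.42 for Tnni1, 0.40 for Tnnc1, 0.26 for Myl2, 0.24 for Myl3 and 0.22 for Myoz2. Ranked by SD over this curve among the 11116 genes with a mean of at least 1, Myl3 was number 22, Myl2 number 28, Tnnt1 number 32, Tnnc1 number 84, Tnni1 number 105 and Myoz2 number 107. Myh7 was number 10 in the same ranking. These ranks describe the genes and carry no test.

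**Figure D1:**
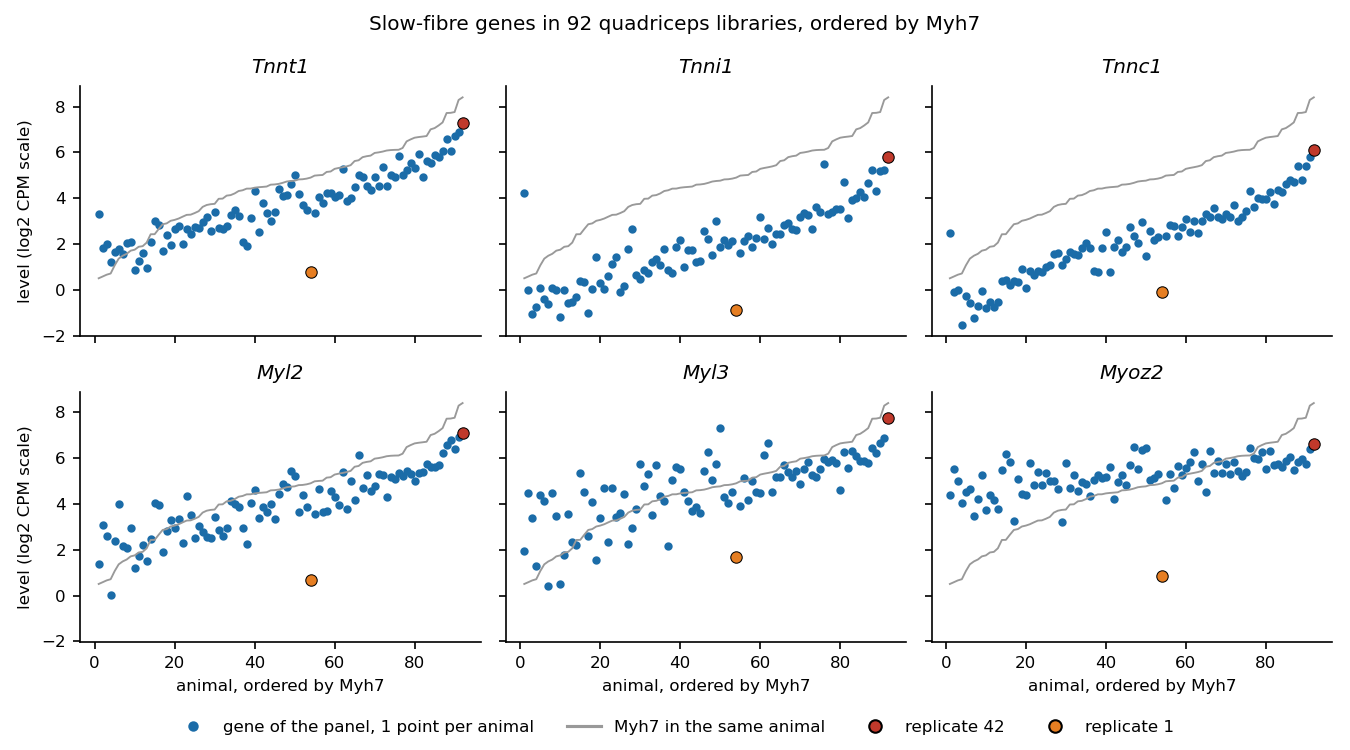
Level of each slow-fibre gene (log2 CPM scale, vertical axis) in each of 92 animals ordered from the lowest to the highest Myh7 (horizontal axis); the grey line is Myh7 in the same animals. The troponins and Myl2 climb with Myh7 from left to right, Myoz2 climbs least, replicate 42 (red) is highest in all 6 panels, and replicate 1 (orange) lies far under its neighbours.

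Compared per kilobase of merged exon, the members fell in the order Myl3, Myoz2, Myl2, Tnnt1, Tnnc1, Tnni1. On the scale of mean log2 level per kilobase, Myl3 stood at 3.54 and Myoz2 at 3.42, and Myl3 was the higher of the pair in 59 of 92 animals. The difference of 0.12 had an SD of 1.01 over animals, so the order of these neighbours changed from animal to animal. Myoz2 exceeded Myl2 (3.01) in 57 animals, by 0.41 ± 0.97 (SD, n = 92), and Myl2 exceeded Tnnt1 (2.56) in 74 animals, by 0.45 ± 0.59 (SD, n = 92). Both of these differences are smaller than their SD, which describes single animals. Whether the means differ was not tested for any of these pairs. Tnnt1 exceeded Tnnc1 (2.05) in 84 animals by 0.51 ± 0.49 (SD, n = 92). Tnnc1 exceeded Tnni1 (0.06) in 92 of 92 animals, by 1.996 ± 0.521 (SD, n = 92) on the log2 scale. Among the 6 members Tnni1 was thus the lowest per kilobase of merged exon. Its merged exons, taken over all annotated transcripts, span 3600 bases, against 1041 for Tnnc1. Before division by length the means of Tnni1 and Tnnc1 were 1.90 and 2.11, so most of their gap came from these lengths. The length of the transcripts present was not measured.

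The same animals were at the extremes for most members. Replicate 42 had the highest value of all 6 genes and of Myh7. The 10 highest animals for each gene came from 18 animals in all, of which 9 were in the top 10 for at least 4 genes and 2 for all 6. The 10 lowest animals for each gene came from 20 animals, of which 8 were in the lowest 10 for at least 4 genes and 3 for all 6. Replicate 92 was lowest for Tnni1 (-1.18) and ranked 91 from the highest for Tnnt1, 90 for Tnnc1 and Myl2, 91 for Myl3 and 88 for Myoz2. Replicate 17 was lowest for Tnnc1 (-1.51) and Myl2 (0.03), and replicate 35 for Myl3 (0.43).

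Against their fast counterparts the slow genes were minor and variable. Tnnt3, fast troponin T, stood at 13.97 ± 0.14 (SD, n = 92) with a span of 2.02-fold, and Tnni2, fast troponin I, at 12.26 ± 0.16 (SD, n = 92). Tnnc2, fast troponin C, stood at 12.39 ± 0.20 (SD, n = 92), although 59.04% of its 31-base words also occur in Ube2c. Mylpf, the fast regulatory light chain, stood at 12.36 ± 0.24 (SD, n = 92), Myl1, the fast essential light chain, at 12.89 ± 0.20 (SD, n = 92), and Myoz1, the fast calsarcin, at 10.42 ± 0.17 (SD, n = 92). Per kilobase of exon the fast gene was higher in 92 of 92 animals for each of the 6 pairs.

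**Figure D2:**
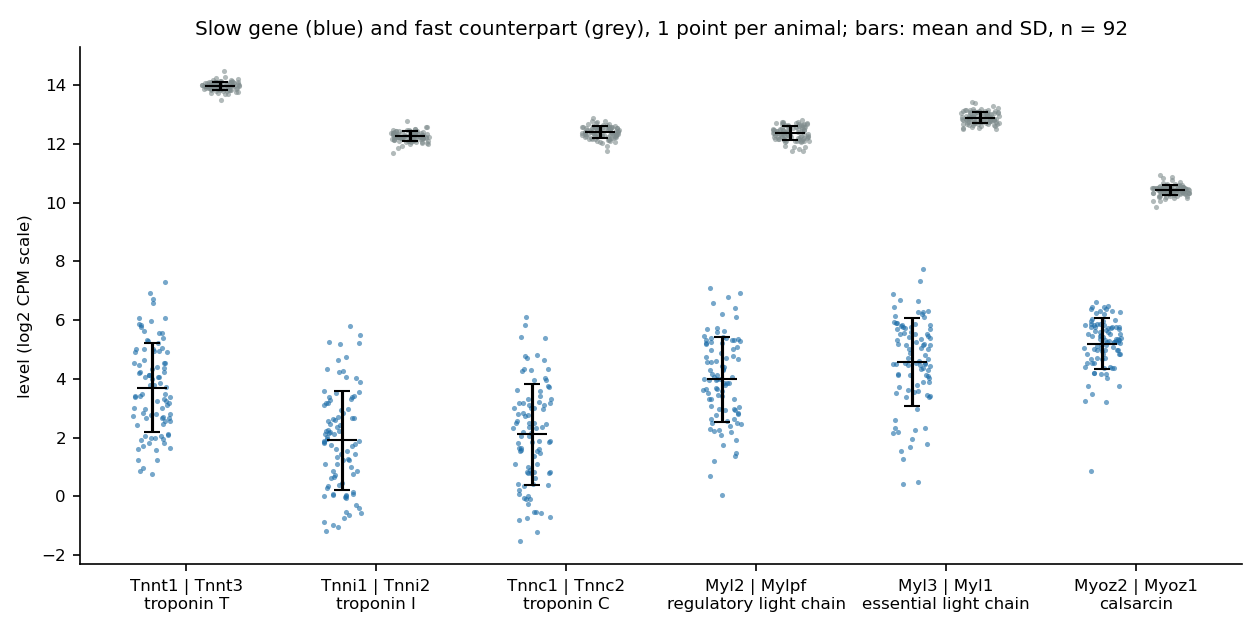
Level (log2 CPM scale, vertical axis) of each slow gene (blue) and its fast counterpart (grey) by pair (horizontal axis), 1 point per animal, with the mean and SD of 92 animals. The blue and grey clouds do not overlap in any pair; the slow genes spread over 5.78 to 7.61 log2 units and the fast genes over about 1.

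Expressed per kilobase of exon, Tnnt1 made up 0.0064% of the Tnnt1 and Tnnt3 sum in the lowest animal, 0.0529% in the median animal and 0.641% in the highest. Tnni1 made up 0.0037%, 0.0323% and 0.572% of its pair, and Tnnc1 0.0053%, 0.0624% and 0.857%. The light chains took a larger share: Myl2 made up 0.0127%, 0.172% and 1.20% of its pair, and Myl3 0.0154%, 0.376% and 2.66%. Myoz2 made up 0.0509%, 1.503% and 4.87%, and its lowest share without replicate 1 was 0.353%. The slow share thus rose from the troponins to the light chains to Myoz2, in each case by the median animal. Without division by length the medians for Tnni1, Myl2 and Myoz2 were 0.0776%, 0.315% and 2.69%, more than 1.5 times the per-length values.

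The slow genes were correlated with each other in all 15 pairs. Pearson's r ran from 0.609 to 0.962, each permutation p was 1e-05, the smallest that 100000 resamples can give, and all 15 pairs passed limma's adjusted p over all genes. The troponins formed the tightest group: r was 0.962 for Tnnt1 and Tnnc1 (rho = 0.960), 0.954 for Tnni1 and Tnnc1 (rho = 0.959) and 0.937 for Tnnt1 and Tnni1 (rho = 0.935). Without the 2 animals farthest from the median these became 0.957, 0.953 and 0.929. Within each of the 5 runs of sample title numbers, which were treated as a possible batch, r for the 3 troponin pairs stayed between 0.921 and 0.979.

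Myl2 was the light chain nearer to the troponins. Its r was 0.924 with Tnnt1 (rho = 0.924), 0.875 with Tnnc1 (rho = 0.876) and 0.838 with Tnni1 (rho = 0.849), each with a permutation p of 1e-05. Myl3 had r of 0.845 with Myl2 (rho = 0.862), 0.815 with Tnnt1 (rho = 0.835), 0.744 with Tnnc1 (rho = 0.759) and 0.688 with Tnni1 (rho = 0.731), with the same permutation p. Over the blocks of title numbers Myl2 with Tnnt1 ranged from 0.885 to 0.971, and Myl3 with Tnnt1 from 0.745 to 0.850. Without the 2 farthest animals these 2 relations had r of 0.915 and 0.798.

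Myoz2 was the member least tied to the rest. Its r was 0.756 with Myl2 (rho = 0.786) and 0.756 with Myl3 (rho = 0.820), 0.702 with Tnnt1 (rho = 0.735), 0.609 with Tnnc1 (rho = 0.635) and 0.609 with Tnni1 (rho = 0.624), each with a permutation p of 1e-05. Within blocks the r of Myoz2 with Tnnt1 ranged from 0.538 to 0.856 and that with Myl3 from 0.445 to 0.909. Without the 2 farthest animals r with Tnnt1 was 0.682 and with Tnnc1 0.583. As a description, a linear combination of the other 5 members accounted for 96.3% of the variance of Tnnt1, 95.2% of Tnnc1, 92.3% of Tnni1, 88.8% of Myl2, 77.7% of Myl3 and 65.3% of Myoz2.

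**Figure D3:**
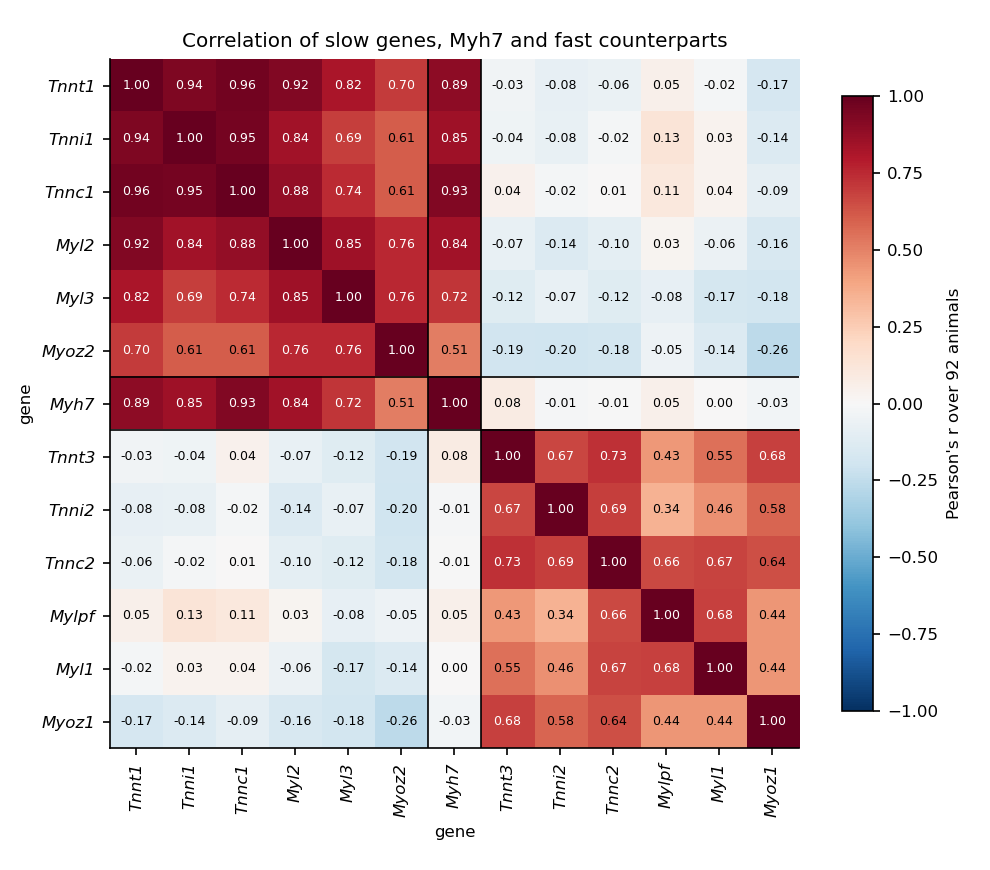
Pearson's r over 92 animals for each pair of the 6 slow genes, Myh7 and the 6 fast counterparts (both axes are genes; red positive, blue negative, black lines divide the groups). The slow genes form a red block of 0.61 to 0.96, and the fast genes form a second one. The squares between them run from -0.26 to 0.13, and those of Myoz2 are all negative.

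Myh7 encodes the motor of slow fibres, and all 6 members rose with it. In limma's fit over all genes, 23 of 13440 genes were associated with Myh7 at an adjusted p under 0.05 (0.171%), 22 rising and 1 falling, and the 6 members were among the 22. Per doubling of Myh7, Tnnc1 rose by 0.85 ± 0.04 (SE) log2 units, Tnni1 by 0.77 ± 0.05, Tnnt1 by 0.73 ± 0.04, Myl2 by 0.65 ± 0.04, Myl3 by 0.57 ± 0.06 and Myoz2 by 0.24 ± 0.04. The correlation with Myh7 was 0.927 for Tnnc1 (rho = 0.940), 0.892 for Tnnt1 (rho = 0.914), 0.850 for Tnni1 (rho = 0.880), 0.840 for Myl2 (rho = 0.857), 0.716 for Myl3 (rho = 0.752) and 0.510 for Myoz2 (rho = 0.625), each with a permutation p of 1e-05. The block with the weakest relation had r of 0.861 for Tnnc1, 0.595 for Myl3 and 0.324 for Myoz2. Without the 2 animals farthest from the median of the member, r was 0.919 for Tnnc1, 0.880 for Tnnt1, 0.847 for Tnni1, 0.865 for Myl2, 0.699 for Myl3 and 0.625 for Myoz2.

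Outside the 6 members, the strongest rises per SD of Myh7 among genes with a mean of at least 1 were those of Myh6, the alpha cardiac myosin heavy chain (1.501 ± 0.090, SE), Tpm3, slow tropomyosin (0.97 ± 0.06), and Atp2a2, the slow calcium pump of the sarcoplasmic reticulum (0.60 ± 0.04). Lgi1, a secreted protein best known from neurons, rose by 0.54 ± 0.08, adjusted p = 1.4e-06. Gm50221, an uncharacterised gene, rose by 0.38 ± 0.06, Gm5532 by 0.34 ± 0.07, Pdlim1 by 0.29 ± 0.05 and Myom3 by 0.28 ± 0.07. The metabolic enzymes Ldhb and Idh2 rose by 0.25 ± 0.05 and 0.24 ± 0.04. Myh2, the fast oxidative myosin, named after its value was seen, rose by 0.20 ± 0.05, adjusted p = 0.035. Arf3, a small GTPase, was the only gene that fell, by 0.11 ± 0.03, adjusted p = 0.033, and its r with Myh7 ran from -0.626 to 0.132 within the blocks.

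The genes outside the family whose levels most resembled each member were largely the same few. Among genes with a mean of at least 1, Tnnt1 was most like Atp2a2 (r = 0.920 over 92 animals), Myh6 (0.915) and Tpm3 (0.909). Tnni1 was most like Myh6 (0.876), Tpm3 (0.873) and Atp2a2 (0.865), and Tnnc1 most like Myh7 (0.927), Myh6 (0.914) and Tpm3 (0.908). Myl2 was most like Atp2a2 (0.892), Myh6 (0.866) and Tpm3 (0.853). Myl3 was most like Atp2a2 (0.786), Pdlim1, a PDZ and LIM domain protein of the actin cytoskeleton (0.745), and Myh6 (0.733). Myoz2 had another set: Ankrd2, a stretch-responsive protein of the I-band (0.795), Myom3, a myomesin of the M-band (0.784), and Pdlim1 (0.761).

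At the other end, the lowest correlations were negative. Tyw1, which modifies transfer RNA, was lowest for Tnnt1 (r = -0.407), Myl3 (-0.564) and Myoz2 (-0.543) and second lowest for Myl2 (-0.422), with adjusted p = 0.0217, 4.9e-06, 1.4e-05 and 0.00939 in limma. Themis3 was next for Tnnt1 (-0.396) and lowest for Tnnc1 (-0.395), where Arf3 followed (-0.386, adjusted p = 0.0549, with r from -0.624 to 0.355 within the blocks). Ttll7, a tubulin-modifying enzyme, and Gga1 were lowest for Tnni1 (-0.423 and -0.412), and Ficd for Myl2 (-0.443). Plekha2 was second for Myl3 (-0.459) and Jph2, which couples the sarcoplasmic reticulum to the surface membrane, for Myoz2 (-0.491). The weakest of these members' relations with Tyw1 within a block was -0.0229, for Myoz2.

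Each member was also used as the predictor over all 13440 other genes. Tnnt1 had 69 associated genes (0.513%), 61 rising and 8 falling, and Tnni1 also had 69 (0.513%), 54 rising and 15 falling. The count for Tnni1 was 41 with 6 marker scores as covariates and 34 without the 2 animals farthest from its median. Tnnc1 had 33 (0.245%), 32 rising and 1 falling, and Myl2 had 87 (0.647%), 80 rising and 7 falling. Myl3 had 164 (1.22%), 134 rising and 30 falling. Myoz2 had by far the most, 402 (2.99%), with 264 rising and 138 falling, and 252 without replicate 1, the animal with the lowest Myoz2. For every predictor the 5 other members passed the test and rose, with median slopes of 1.07 (Myoz2) to 1.41 (Myl2) log2 units per SD against medians over all genes of -0.00154 (Myoz2) to -0.000158 (Myl2).

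A list of 12 other slow-fibre genes, from myosins to a fatty acid binder, moved with the members. With Tnnt1, Myl2, Myl3 and Myoz2, 10 of the 12 rose, and with Tnni1 and Tnnc1 9 rose; with Myh7 5 of 11 rose, and none fell. For Myh7, 9 of the 11 had an unadjusted p under 0.05 in limma, against 5.34% of all genes. The share of all genes called was 0.171% for Myh7 and 0.245% (Tnnc1) to 2.99% (Myoz2) for the members. The list's median slope per SD was 0.37 for Myh7, 0.48 for Tnnt1, 0.46 for Tnni1 and Tnnc1, 0.49 for Myl2, 0.52 for Myl3 and 0.56 for Myoz2. Casq2, the calcium store of slow and cardiac muscle, rose by 0.44 ± 0.07 (SE) per SD of Tnnt1. Csrp3, a Z-disc LIM protein, rose by 0.59 ± 0.11 and Ankrd2 by 0.51 ± 0.08. Their slopes per SD of Myh7 were 0.40 ± 0.11 (adjusted p = 0.19 in limma) and 0.37 ± 0.09 (0.065), and a difference from Tnnt1 was not tested. Fabp3, the muscle fatty acid binder, rose by 0.18 ± 0.04 per SD of Tnnt1 and did not pass for Myh7, Tnni1 and Tnnc1. Per SD of Myh7 the slope was 0.13 ± 0.04 for Fabp3 (adjusted p = 0.517 in limma) and 0.28 ± 0.08 for Casq2 (0.158). Pln, the brake on the slow calcium pump, and Myl6b, a further essential light chain, passed for none of the 7 predictors.

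None of the 15 genes of the fast-fibre list passed for Myh7 or for 5 of the members in limma; at an unadjusted p under 0.05 the counts were 0 for Myh7, 3 for Tnnt1, 2 for Tnni1, 1 for Tnnc1, 3 for Myl2 and 8 for Myl3. The share of all genes at that unadjusted p was 5.34%, 8.39%, 11.2%, 7.09%, 9.64% and 10.99% in the same order. For Myoz2 the count was 10, where 16.1% of all genes had such a p and 2.99% were called. With Myoz2, 4 fell: Myh4, the fastest myosin heavy chain, by 0.11 ± 0.02 (SE) per SD, Pvalb, the calcium buffer parvalbumin, by 0.10 ± 0.02, Mybpc2, fast myosin-binding protein C, by 0.09 ± 0.02, and Actn3, fast alpha-actinin, by 0.08 ± 0.02. Myh1, the intermediate fast myosin, rose by 0.17 ± 0.04. Myh2, the fast oxidative myosin, is not on the list and was looked at after its values were seen. It rose with Myh7 and with each of the 6 members, by 0.19 ± 0.05 per SD of Tnni1 (adjusted p = 0.0307 in limma) up to 0.29 ± 0.04 per SD of Myl3 (3.03e-07), and by 0.28 ± 0.04 per SD of Myoz2 (6.57e-07). Without replicate 1, Myh4 (adjusted p = 0.00127), Mybpc2 (0.0342) and Myh1 (0.0154) still passed in limma, whereas Pvalb (0.205) and Actn3 (0.393) did not. In the fit on Myoz2 minus Tnnt1 described further on, none of the 15 fast genes was called in limma. Of the 15, 5 had an unadjusted p under 0.05, against 8.83% of all genes. A difference between the relation to Myoz2 and that to Tnnt1 was thus not shown for any single one of them. The adjusted p there was 0.141 for Pvalb, 0.382 for Mybpc2, 0.575 for Actn3 and 0.608 for Myh4.

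No slow gene had a relation to its own fast counterpart that passed in limma. Over 92 animals r was -0.0322 for Tnnt1 and Tnnt3 (permutation p = 0.76), -0.0762 for Tnni1 and Tnni2 (permutation p = 0.47) and 0.00771 for Tnnc1 and Tnnc2 (permutation p = 0.941). It was 0.0269 for Myl2 and Mylpf (permutation p = 0.799), -0.172 for Myl3 and Myl1 (permutation p = 0.1) and -0.260 for Myoz2 and Myoz1 (permutation p = 0.0134). The measures differed for 2 pairs. For Myoz2 and Myoz1 Spearman's rho was -0.111 (permutation p = 0.294), and the limma adjusted p was 0.168. For Myl3 and Myl1 rho was -0.211 (permutation p = 0.0426), and the limma adjusted p was 0.582. The slopes were small as well, from -0.04 ± 0.02 (SE) log2 units of Myoz1 per SD of Myoz2 to 0.01 ± 0.03 of Mylpf per SD of Myl2.

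**Figure D4:**
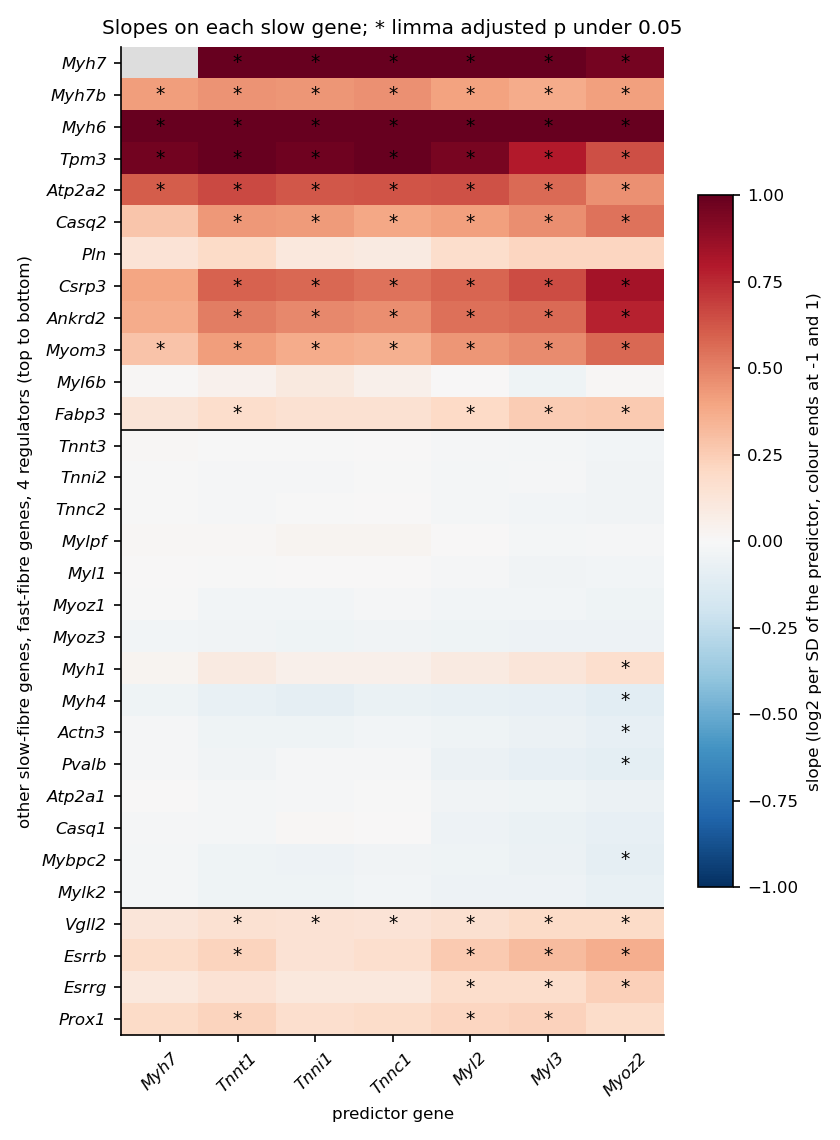
Slope of each listed gene (rows: 12 other slow-fibre genes, 15 fast-fibre genes, 4 regulators) on Myh7 and on each slow gene (columns), in log2 units per SD of the column gene; an asterisk marks limma's adjusted p under 0.05 and grey a gene against itself. The slow-fibre rows are red with asterisks in 5 to 10 cells per column, and the fast-fibre rows are pale, with asterisks in the Myoz2 column only.

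Of 21 regulators of fibre type, none fell with Myh7 or a member. The count that rose was 0 for Myh7, 1 for Tnni1 and Tnnc1, 3 for Tnnt1 and Myoz2, and 4 for Myl2 and Myl3. Of all genes 0.171%, 0.513%, 0.513%, 0.245%, 0.647%, 1.22% and 2.99% were called for Myh7, Tnnt1, Tnni1, Tnnc1, Myl2, Myl3 and Myoz2. At an unadjusted p under 0.05 in limma the counts were 5, 5, 7, 5, 5, 7 and 8 of 21 in that order. The share of all genes at that p was 5.34%, 8.39%, 11.2%, 7.09%, 9.64%, 10.99% and 16.1%. Vgll2, a muscle cofactor of TEAD factors, was called for all 6 members and rose by 0.15 ± 0.03 (SE) per SD of Tnnt1 and 0.19 ± 0.03 per SD of Myoz2. Esrrb, an oestrogen-related receptor, rose by 0.23 ± 0.05 per SD of Tnnt1, 0.32 ± 0.05 per SD of Myl3 and 0.36 ± 0.04 per SD of Myoz2. Esrrg, its relative, rose with Myl2, Myl3 and Myoz2, by 0.24 ± 0.04 per SD of the last. Prox1, a homeobox factor of slow fibres, rose by 0.22 ± 0.06 per SD of Tnnt1. The repressor Sox6, the Mef2 and Tead genes and the calcineurin gene Ppp3ca were not called for any member. The median slope of the list ran from -0.0113 (Myl2) to 0.0125 (Myl3) over the 7 predictors.

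Markers of other cells in the muscle did not pass the test with any member. Of 59 genes for fat, macrophages, fibroblasts, endothelium, Schwann cells, smooth muscle, satellite cells and blood, 57 were tested; Calcr and Slc4a1 were not analysed here. In limma the number called was 0 for each of the 7 predictors, and the number with an unadjusted p under 0.05 was 1 for Myh7, 4 for Tnnt1, 9 for Tnni1, 1 for Tnnc1, 6 for Myl2, 6 for Myl3 and 9 for Myoz2. Over all genes that share was 5.34% for Myh7, 7.09% for Tnnc1, 11.2% for Tnni1 and 16.1% for Myoz2, with the others between 8.39% and 10.99%. The mean log2 level of the adipocyte list ranged from 0.91 to 6.62 between animals and that of the blood list from 4.31 to 11.33, so levels of these markers differed between samples. Among these lists, that of satellite cells, the stem cells of muscle fibres, had the highest correlation with Tnnt1. Its mean standardised level had r = 0.324 with Tnnt1 over the 92 animals, and its mean log2 level ranged from 0.95 to 2.86. Of its 5 tested genes 4 had an unadjusted p under 0.05 with Tnni1 and 2 with Tnnt1, and none was called. Their part in the results was not tested. With 6 list scores as covariates (fat, macrophages, fibroblasts, endothelium, Schwann cells and blood), all 15 correlations among the members still passed. The satellite cell and smooth muscle lists were not among these scores. The heart genes Tnni3, Myl7 and Nppa were not analysed here. Of the 5 other cardiac or developmental genes tested, Myl4, an atrial and embryonic light chain, was called with Tnni1 alone (0.38 ± 0.09 per SD, adjusted p = 0.0153).

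Genes related in different degree to Myoz2 and to Tnnt1 were sought in a further fit, added after the correlations had been seen, in which the predictor was the standardised Myoz2 level minus the standardised Tnnt1 level. Of 13439 other genes 15 were associated (0.112%), 9 rising and 6 falling. A gene closer to Tnnt1 than to Myoz2 gets a negative slope from this predictor by its construction. That holds for the 4 slow genes called: their slopes per SD were -0.93 ± 0.17 (SE) for Myh7, -0.79 ± 0.16 for Tnnc1, -0.72 ± 0.16 for Tnni1 and -0.47 ± 0.10 for Tpm3. Myh7 had r = 0.892 with Tnnt1 and 0.510 with Myoz2, and Tpm3, a slow tropomyosin, had 0.909 and 0.579. With 6 marker scores as covariates Tnni1 no longer passed (adjusted p = 0.0755). Of the 12 slow-fibre genes that are no members, 2 fell (Myh7 and Tpm3) and 0 rose, and the median slope was -0.00248 against -0.000572 over all genes. Myh6 (adjusted p = 0.082 in limma) and Atp2a2 (0.114) did not pass, and the slopes of Ankrd2 (0.33), Csrp3 (0.31) and Myom3 (0.20) were positive and not called. Without replicate 1 the slopes of Ankrd2, Csrp3 and Myom3 were 0.19, 0.14 and 0.11. Among the light chains Myl2 had a slope of -0.31 ± 0.15 (adjusted p = 0.525) and Myl3 of -0.11 ± 0.15 (adjusted p = 0.884).

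The 9 rising genes had no list of their own and were not tested for a shared function. By adjusted p in limma, the first was Mgst1, a membrane-bound glutathione transferase (0.32 ± 0.06, adjusted p = 0.0151), followed by the uncharacterised Gm56744 (0.16 ± 0.03, 0.0154). Bdh1, a mitochondrial enzyme of ketone body use, had a slope of 0.40 ± 0.09, Gm826 of 0.31 ± 0.07 and Perm1, a muscle regulator of mitochondrial genes, of 0.16 ± 0.03. Klhl34 had 0.27 ± 0.06, the growth factor Igf1 0.23 ± 0.05, Akap1, a mitochondrial anchor protein, 0.09 ± 0.02, and Abcd3, a peroxisomal transporter, 0.07 ± 0.02. The other 2 falling genes were Mmgt2 (-0.20 ± 0.04) and Egf, the epidermal growth factor (-0.14 ± 0.03).

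Without replicate 1, 8 genes were associated, 6 of them among the 15. Of the rising genes Gm56744 (adjusted p = 0.0174 in limma) and Abcd3 (0.0401) then still passed. Mgst1 (0.075), Gm826 (0.0716), Bdh1 (0.705), Perm1 (0.634), Akap1 (0.598), Klhl34 (0.713) and Igf1 (0.705) did not, nor did the falling genes Mmgt2 (0.0782) and Egf (0.54). The slopes of these 7 rising genes, in the same order, were then 0.28, 0.29, 0.24, 0.11, 0.07, 0.17 and 0.16. Those of Mmgt2 and Egf were -0.18 and -0.11. With the marker scores the same 7 rising genes did not pass, with adjusted p from 0.0691 (Gm826) to 0.48 (Akap1). With block as a covariate Abcd3, Akap1, Klhl34 and Egf (0.0682 for each) and Igf1 (0.0516) did not pass. After centring Abcd3 (0.0631), Akap1 (0.0542), Igf1 (0.0542) and Egf (0.0573) did not. Without the 2 animals farthest from the median Gm56744 alone of the rising genes passed, and neither Mmgt2 nor Egf did. Igf1 also missed with principal components (0.0915), and Igf1 (0.0579) and Klhl34 (0.0612) missed on the log2(value + 1) scale. Myh7, Tnnc1, Tnni1 and Tpm3 still passed without replicate 1, and Myh6 and Atp2a2 then did so too (both 0.000865).

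**Figure D5:**
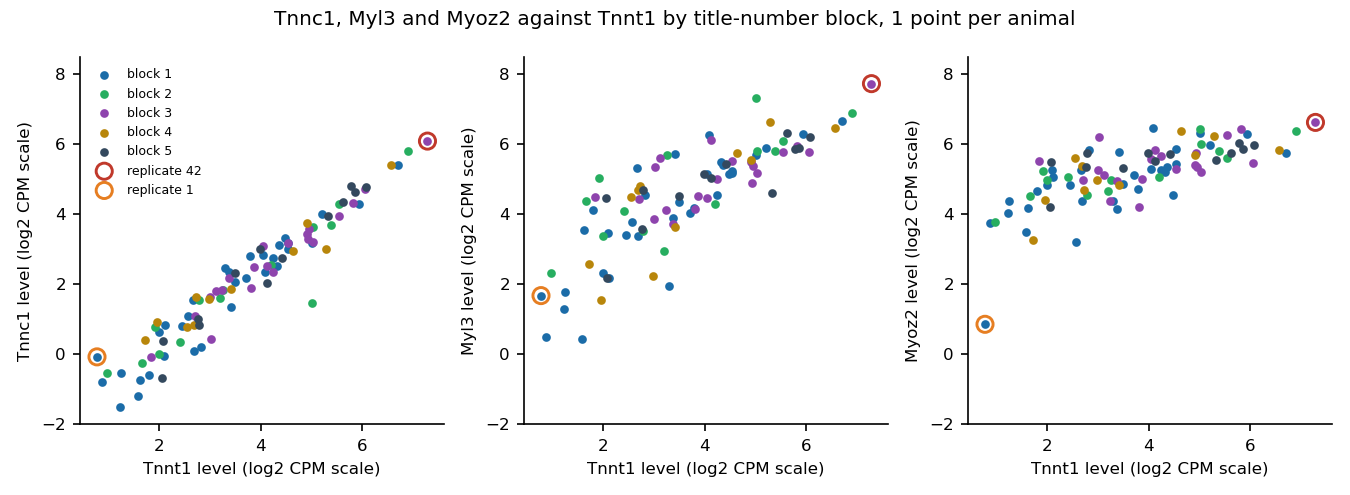
Tnnc1, Myl3 and Myoz2 (vertical axes, log2 CPM scale) against Tnnt1 (horizontal axis, log2 CPM scale), 1 point per animal, coloured by the 5 blocks of title numbers, with replicates 42 (red ring) and 1 (orange ring) marked. Tnnc1 follows a narrow line (r = 0.962), Myl3 a wider band (r = 0.815) and Myoz2 a shallow one (r = 0.702).

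Replicate 1 lay low for the whole group and lowest for Tnnt1 and Myoz2. Its Myoz2 level of 0.85 compares with a mean of 5.20, its Ankrd2 level of 1.21 with a mean of 4.88 and its Myom3 level of 2.81 with a mean of 5.14. Its Myh7 level was 4.90, above the mean of 4.53. Leaving it out changed r of Myoz2 with Myh7 from 0.510 to 0.611, and r of Myoz2 with Tnnt1 from 0.702 to 0.714. Ankrd2 (r = 0.750), Myom3 (0.757) and Pdlim1 (0.728) remained related to Myoz2 in the other 91 animals, each called by limma.

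The blocks of title numbers, which may or may not be batches, did not separate the members. They held 33, 14, 21, 11 and 13 animals. The block means ran from 3.25 to 4.26 for Tnnt1, from 1.44 to 2.58 for Tnni1, from 1.60 to 2.72 for Tnnc1, from 3.53 to 4.49 for Myl2, from 4.03 to 5.12 for Myl3 and from 4.87 to 5.56 for Myoz2. The first block had the lowest mean for each gene. In limma's F test 2 of 13441 genes differed between blocks (0.0149%), and the 6 members had adjusted p values of 0.615 to 0.718.

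Cers1, the ceramide synthase that makes C18 ceramide and whose transcript overlaps Gdf1, had 654 associated genes (4.87%), and 1 of the 6 members was among them: Myl3 fell by 0.47 ± 0.15 (SE) per SD of Cers1 (adjusted p = 0.0449 in limma, r = -0.311). Myoz2 had a slope of -0.24 ± 0.09 (adjusted p = 0.0927), and the other 4 had slopes of -0.29 to -0.27 with adjusted p of 0.311 to 0.402. The Myl3 relation did not pass with 3 principal components as covariates (-0.53 ± 0.16, adjusted p = 0.051) or without the 2 animals farthest from the median of Cers1 (-0.42 ± 0.15, adjusted p = 0.0879), and a difference between Myl3 and the other members was not tested. Of the 12 other slow-fibre genes 3 fell with Cers1 in limma: Csrp3 by 0.43 ± 0.11, Ankrd2 by 0.30 ± 0.09 and Fabp3 by 0.14 ± 0.04, with a list median slope of -0.17 against 0.00142 over all genes. Of the 15 fast genes Pvalb (0.10 ± 0.02) and Casq1 (0.09 ± 0.02) rose and Myh1 (-0.13 ± 0.04) fell. With Cers2, the synthase of very long chains, 1070 genes were associated (7.96%; 51.3% of them rising, or 27.2% after each sample was centred on its median). The count was 57 with 6 marker scores as covariates and 2 with 3 principal components. Markers of other cells rose with Cers2: 7 of 8 fibroblast genes, 6 of 8 macrophage genes and 3 of 8 Schwann cell genes were called, and the mean log2 level of these lists ranged between animals from 5.07 to 7.21, from 1.61 to 4.80 and from 0.57 to 3.32. None of the 6 members passed for Cers2 in limma and none had an unadjusted p under 0.05. The slopes ran from -0.15 ± 0.17 for Tnni1 to 0.13 ± 0.09 for Myoz2. With 3 principal components as covariates none passed either. The slopes then ran from -0.48 ± 0.19 for Tnni1 (adjusted p = 0.366 in limma) to 0.04 ± 0.10 for Myoz2 (0.936).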

How the data were processed

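Quadriceps RNA of 92 chow-fed mice was sequenced, with KAPA mRNA HyperPrep libraries per the labels' protocols. The submitters' processing notes name bcl2fastq, MultiQC, kallisto 0.50.1, edgeR and mm10, with no order. The authors deposited log2 values that sum, in linear form, to 898071 to 1140761 per sample; the scaling, prior count and low-gene filter are not given in the sources used here, and depth per library is unknown, so precision rests on the spread between animals. Of 13456 lines, 15 repeats were removed.

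Associations were fitted with limma 3.58.1 (R 4.3.3) with a mean-variance trend, with 1 standardised gene as the predictor, with Benjamini-Hochberg adjustment over all other genes, and were tested on simulated data. Correlations (27 relations) have two-sided permutation p values from 100000 resamples. Exon lengths, positions and shared 31-base words come from GENCODE M21, promoters from RefSeq. Named genes were the members, Myh7, the fast counterparts, the 3 highest and 2 lowest correlations per member, the largest Myh7 slopes and list genes. Members and lists were chosen with earlier results of these data known. The fits without replicates 1 or 69 and on Myoz2 minus Tnnt1 were added after seeing the data. Blocks are runs of title numbers with gaps over 30.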

Additional observations from a re-analysis of the deposited data

How the results depend on the processing

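Each count of associated genes was recomputed with block, 3 principal components or 6 marker scores as covariates, on genes with a mean of at least 1, as log2(value + 1), after centring, and without the 2 animals farthest from the median of the predictor. No paired analysis was possible because the labels put all animals in 1 group. All 15 correlations among the members passed, and none of the 6 with fast counterparts did, under each of these that was run. Counts moved by over 1.5 times as follows; the causes were not tested. With marker scores, Tnni1 had 41 genes in place of 69, Cers2 57 in place of 1070, Myoz2 minus Tnnt1 7 in place of 15 and the blocks 1 in place of 2. With principal components, Cers1 had 421 in place of 654, Cers2 2, Myoz2 minus Tnnt1 26, and the blocks 0 by limma (776 at an unadjusted p under 0.05). Without the 2 farthest animals, Tnni1 had 34, Myoz2 227 in place of 402, and Myoz2 minus Tnnt1 7. After centring, the blocks had 1. Without replicate 1, Myoz2 had 252 and Myoz2 minus Tnnt1 8. Unknown depth limits the lowest values, such as Tnni1 and Tnnc1 under 0.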

Other observations

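Myosins and light chains of developing muscle also varied widely between these adults. Myh8, the perinatal myosin heavy chain, had a mean of 7.45 ± 1.90 (SD, n = 92) and ran from 3.45 through a median of 8.03 to 9.71. Myh3, the embryonic one, ran from 2.86 through 4.15 to 8.35, and Actc1, cardiac actin, from 3.29 through 5.84 to 9.25. Of the 5 such genes tested, Myl4 with Tnni1 was the one call, given above. Myh8 had r from 0.0959 with Myoz2 to 0.229 with Myl2, and its smallest adjusted p in limma was 0.372, with Tnni1.

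Single animals broke the common pattern. Replicate 69 had the lowest Myh7 of all (0.51) yet ranked 10 from the highest for Tnni1 (4.22), 41 for Tnnc1 (2.47) and 53 for Tnnt1 (3.298), while Myl2 (1.37) ranked 89 and Myl3 (1.94) ranked 86. Without it, r with Myh7 was higher for the troponins, at 0.957 for Tnnc1, 0.916 for Tnni1 and 0.910 for Tnnt1, and slightly lower for the others, at 0.834 for Myl2, 0.704 for Myl3 and 0.503 for Myoz2. Replicate 56 ranked 2 for Myl3 (7.32), 3 for Myoz2 (6.43) and 21 for Tnnt1 (5.01), but 48 for Tnni1 (1.85), 61 for Tnnc1 (1.48) and 59 for Myh6 (2.17). These animals were picked after their values were seen.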
